A study of Mus musculus with 6 samples.

Results

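The genes described here are 10 genes of antigen presentation by the major histocompatibility complex (MHC), measured in haematopoietic stem cells (HSCs) of young and old mice. They were chosen by symbol, by matching the Ensembl identifiers of the count table to the GRCm38 annotation, and all 10 of them were found among 16312 genes and passed the filter on low counts. Of these, 6 belong to class I presentation (H2-D1, H2-K1, B2m, Tap1, Tapbp and Nlrc5) and 4 to class II presentation (H2-Aa, H2-Ab1, H2-Eb1 and Cd74). Bone marrow HSCs of male mice were sorted by flow cytometry. The labels call the animals B6 controls within a parabiosis experiment (one that joins the circulation of animals), and the series title names the substrain C57BL/6N. There were 3 samples of young mice (8 to 12 weeks of age) and 3 of old mice (22 months). No genotype, transgene or drug is named in the labels, both groups are controls, and the sources used here do not name the surface markers of the sort.

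MHC class I molecules display peptides from proteins made inside the cell. They consist of a heavy chain, in C57BL/6 mice encoded by H2-K1 and H2-D1, bound to beta-2 microglobulin (B2m). Peptides cut by the proteasome are pumped into the endoplasmic reticulum by the TAP transporter, of which Tap1 is a subunit, and are loaded with the help of tapasin (Tapbp). Nlrc5 encodes a transcriptional coactivator of class I genes. MHC class II molecules display peptides from the endosomal pathway, chiefly on B cells, dendritic cells and macrophages. H2-Aa and H2-Ab1 encode the alpha and beta chain of the I-A molecule, H2-Eb1 encodes the beta chain of I-E, and Cd74 is the invariant chain, which occupies the groove of new class II molecules. C57BL/6 mice carry a defective I-E alpha gene, so the H2-Eb1 chain lacks its usual partner in this strain. Promoters of both classes share an upstream module of boxes called X1, X2 and Y, through which the coactivators Nlrc5 (class I) and Ciita (class II) act.

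The module was looked for in RefSeq promoter sequences (GRCm38.p6, from 250 bases before to 50 bases after each start), because it is a sequence feature that members of both classes could share. Records were found for 7 of the 10 members, and H2-Ab1, Nlrc5 and Cd74 had none in the table. The cores searched were TGACG for the X2 box and ATTGG for the Y box. The X2 core followed by the Y core after 15 to 30 bases, on either strand, occurred in 4 members, H2-D1, H2-K1, B2m and H2-Aa. It occurred in 189 of all 32851 promoters (0.575%). The stretch from the X2 core to the Y core is printed for these 4 to show how alike the spacing is, with both cores in capitals.
H2-D1: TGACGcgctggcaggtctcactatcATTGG
H2-K1: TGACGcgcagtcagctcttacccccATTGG
B2m: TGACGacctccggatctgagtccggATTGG
H2-Aa: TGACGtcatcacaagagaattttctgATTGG
The gap between the cores was 20 bases in the 3 class I genes and 21 bases in H2-Aa. A gap of 20 or 21 bases occurred in 54 of all promoters (0.164%). The motifs and the gap were chosen after the promoters were seen, so these shares describe how common the pair is and are no test. The stretch lies at chr17:35262993-35263022 on the plus strand for H2-D1, at chr17:34000359-34000388 on the minus strand for H2-K1, at chr2:122147609-122147638 on the plus strand for B2m and at chr17:34287867-34287897 on the minus strand for H2-Aa. It begins 101, 41, 78 and 74 bases before the RefSeq start of H2-D1, H2-K1, B2m and H2-Aa. The GENCODE annotation has an H2-D1 transcript that starts further upstream, at position 35262730.

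The 180 bases before the start are printed for H2-K1 and H2-Aa to show what a class I and a class II promoter have beside this pair. Capitals mark the X2 and Y cores and 2 further motifs, the consensus site of NF-kB and the core TTTCNNTT of an interferon-stimulated response element, each searched on both strands.
H2-K1: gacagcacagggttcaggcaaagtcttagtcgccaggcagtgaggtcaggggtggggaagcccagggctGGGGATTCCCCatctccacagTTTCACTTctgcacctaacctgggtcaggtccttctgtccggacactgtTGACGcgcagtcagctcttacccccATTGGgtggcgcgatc
H2-Aa: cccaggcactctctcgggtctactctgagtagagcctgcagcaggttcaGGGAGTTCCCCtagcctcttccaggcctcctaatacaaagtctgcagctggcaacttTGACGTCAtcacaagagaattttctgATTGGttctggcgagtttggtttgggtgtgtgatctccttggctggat
These stretches lie at chr17:34000348-34000527 and chr17:34287824-34288003, both on the minus strand. In H2-Aa the letters TGACGTCA hold the X2 core on both strands, overlapping. The NF-kB consensus was found in H2-D1, H2-K1, B2m and H2-Aa, with overlapping matches in all but B2m, and in no other member with a record, and 8.46% of all promoters held it. TTTCNNTT was found in the same 4 members, in H2-Aa upstream of the printed stretch, and in 23.9% of all promoters. TGACG alone occurred in 20.8% and ATTGG alone in 37.4% of all promoters. Tapbp and H2-Eb1 held ATTGG without TGACG in the window, and Tap1 held both cores but not as such a pair. Among 73 other genes of the pathway lists with a promoter record, H2-Q7, H2-M3 and Jak1 held the pair. A match describes letters and is not a measured binding site.

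Members also share their place in the genome. By the GRCm38 annotation, 7 of the 10 members lie on chromosome 17, in the MHC. H2-K1 spans 33996017 to 34000347, Tap1 34187553 to 34197225, H2-Ab1 34257689 to 34269419, H2-Aa 34282744 to 34287823, H2-Eb1 34305867 to 34316674 and H2-D1 35262730 to 35267499, and Tapbp lies at 33915899 to 33929292. B2m lies on chromosome 2 from 122147686 to 122153083, Nlrc5 on chromosome 8 from 94434356 to 94527272 and Cd74 on chromosome 18 from 60803848 to 60812652. The RefSeq starts of Tap1 and of Psmb9, an immunoproteasome subunit, lie 226 bases apart and point away from each other, so these 2 genes share one stretch of promoter.

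The libraries held between 12494557 (old replicate 2) and 30931680 (young replicate 3) estimated counts. Member counts ran from 75 (H2-Eb1 in old replicate 2) to 73837 (B2m in young replicate 3), so counting error relative to the level was largest for H2-Eb1 and smallest for B2m. Levels are given as CPM, the usual depth-normalised count, taken relative to the TMM-scaled library size, and changes as log2 fold changes of old over young with standard errors (SE) from edgeR. All 11 listed HSC markers were measured, of which Procr and Slamf1 rose and Cd34 fell in edgeR (adjusted p = 0.00097, 0.00103 and 0.000555), where 3.99% of all tested genes passed. DESeq2, where 8.05% of all genes passed, called 6 of the 11, also Hoxb5, Fgd5 and Ctnnal1 as higher in old libraries. The list had a summed level of 3404 to 3990 CPM in young and 3589 to 3936 CPM in old libraries. The old libraries carry the consecutive numbers 28 to 30 in their titles and the young ones 1, 5 and 24, so age and any step that followed these numbers cannot be told apart. The title and the description of young replicate 2 carry different library numbers. These are bulk libraries, in which fewer cells of a type and less RNA per cell cannot be told apart.

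H2-D1 had a higher level in the libraries of old than of young mice. It was the 1 member that passed the test at an adjusted p of 0.05 (edgeR). The other 9 members did not pass, although H2-K1 and H2-Ab1 had an unadjusted p under 0.05 in edgeR, and DESeq2 and limma-voom likewise called H2-D1 alone. Their log2 fold changes ran from −0.56 for H2-Eb1 to 0.32 for Cd74. Both class I heavy chain genes were higher in every old library than in any young one, as was Cd74, while Tap1 and H2-Ab1 were lower in every old library than in any young one. So 5 of 10 members had groups that did not overlap, where 22.4% of all tested genes had such groups. The same criteria over all genes gave 16.5% with an unadjusted p under 0.05 in edgeR, 8.05% called by DESeq2 among the 13728 genes to which it gave an adjusted p, and 3.95% called by limma-voom. With edgeR, 3.99% of all 14288 tested genes passed, 2.45% as higher and 1.54% as lower in old libraries. The median log2 fold change over all tested genes was −0.02. The median was 0.11 over the 6 class I members and −0.40 over the 4 class II members.

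**Figure D1:**
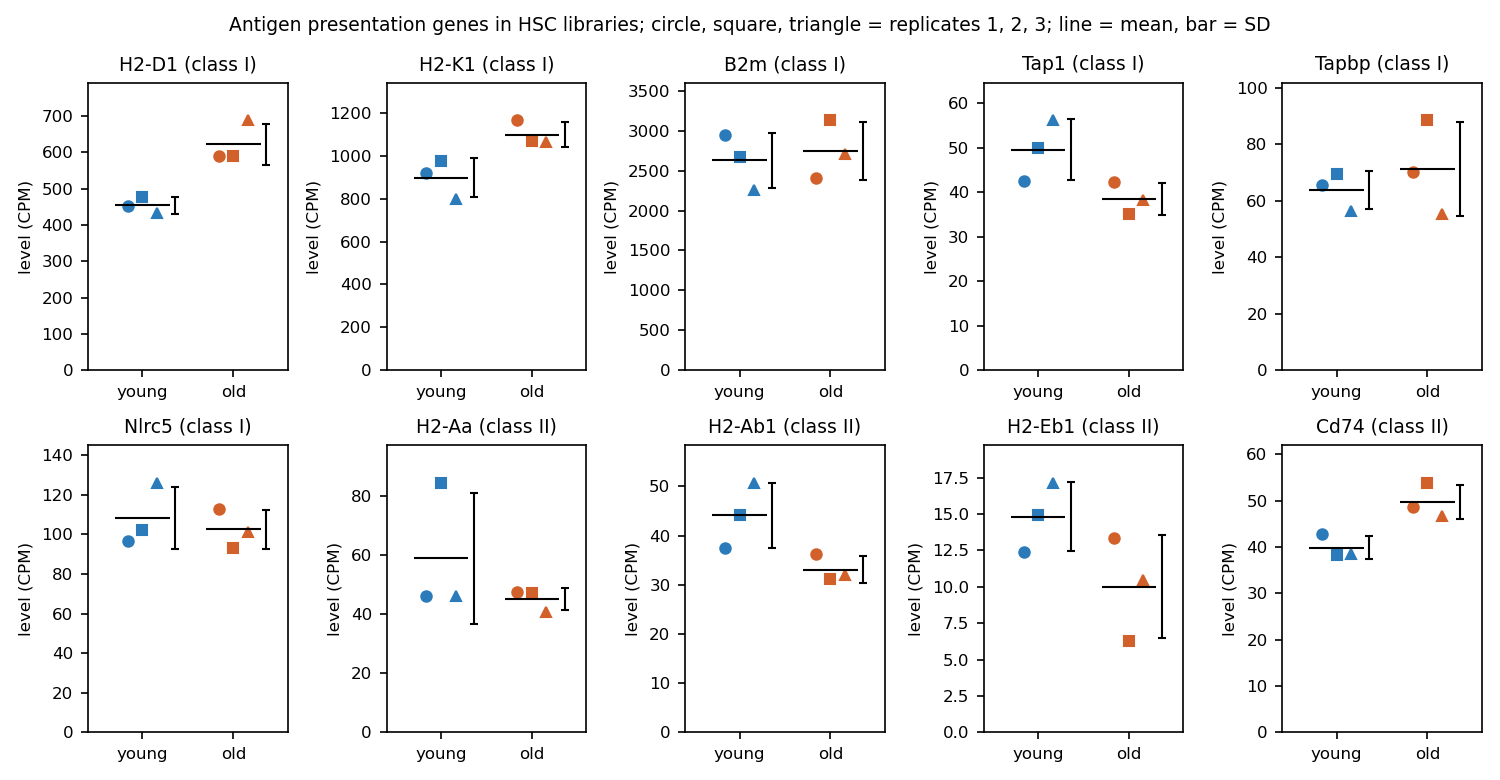
Level of each of the 10 genes in scaled counts (CPM, vertical axis from 0) in the 3 young and 3 old HSC libraries, with circle, square and triangle for replicates 1, 2 and 3, a line for the mean and a bar for the SD. H2-D1, H2-K1 and Cd74 lie higher, and Tap1 and H2-Ab1 lower, in all old libraries, whereas H2-Aa in young replicate 2 (84.7 CPM) stands far above the other 5 libraries.

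Among the class I heavy chains, H2-D1 stood at 451, 478 and 431 CPM in young replicates 1 to 3 and at 590.4, 588 and 688 CPM in old replicates 1 to 3. The lowest old library lay above the highest young one. H2-D1 rose from 454 ± 23.4 to 622 ± 56.7 CPM (SD, n = 3), a log2 fold change of 0.46 ± 0.10 SE, or 1.37-fold (edgeR adjusted p = 0.029). The call needed all 6 libraries, since leaving out any 1 of them gave a log2 fold change of 0.39 to 0.50 with an edgeR adjusted p of 0.0567 (without young replicate 2) to 0.174 (without old replicate 3). The authors' deposited table also has 1 of the 10 members under an adjusted p of 0.05, where 6.17% of its genes are. That member is H2-D1, at −0.42 in log2 units with young as the numerator (adjusted p of the authors 0.0378).

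H2-K1, the other classical heavy chain, stood at 921, 974 and 798 CPM in young libraries and at 1166, 1068 and 1065 CPM in old libraries. Here too the groups did not overlap, but the gap between the highest young and the lowest old library was narrow. The log2 fold change was 0.29 ± 0.10 SE, with a 95% interval from 0.08 to 0.51, and the gene did not pass (edgeR adjusted p = 0.147). The sum of both genes was 1372, 1453 and 1229 CPM in young and 1756, 1657 and 1753 CPM in old libraries, a ratio of means of 1.27. The ratio of H2-D1 to H2-K1 was 0.507 ± 0.0291 in young and 0.568 ± 0.0710 in old libraries (SD, n = 3), with overlap.

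Reads of 50 bases can fall where heavy chain genes are alike, and the sources used here do not say how such reads were divided. The longest identical run shared by the coding sequences of H2-K1 and H2-D1 was 91 bases, and over 1077 coding bases aligned without gaps 85.4% were identical. The 150 coding bases around this run are printed, from the GENCODE M21 annotation (GRCm38), with the 4 differing bases in capitals. They are bases 709 to 858 of the H2-K1 and 718 to 867 of the H2-D1 coding sequence.
H2-K1: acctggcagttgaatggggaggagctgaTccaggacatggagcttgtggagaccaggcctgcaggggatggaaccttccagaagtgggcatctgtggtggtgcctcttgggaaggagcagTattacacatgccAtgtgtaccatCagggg
H2-D1: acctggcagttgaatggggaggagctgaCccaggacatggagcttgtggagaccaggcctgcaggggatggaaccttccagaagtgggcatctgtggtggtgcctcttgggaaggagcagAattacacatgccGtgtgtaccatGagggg
A read of 50 bases within such a run has no base that tells the genes apart. Of all 50-base windows in protein-coding transcripts, 86.1% of those of H2-D1 and 93.1% of those of H2-K1 occurred in no other annotated gene. H2-D1 shared most windows with H2-Q1 (6.68%), H2-K1 (5.58%) and H2-Q7 (5.41%). For B2m, Nlrc5 and the 4 class II members the share was 100%, so no window of their protein-coding transcripts was shared. Exon outside these transcripts was not searched. Tap1 stood at 93.7%, sharing mainly with Psmb9, and Tapbp at 77.6%, sharing mainly with the predicted gene Gm19412.

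**Figure D2:**
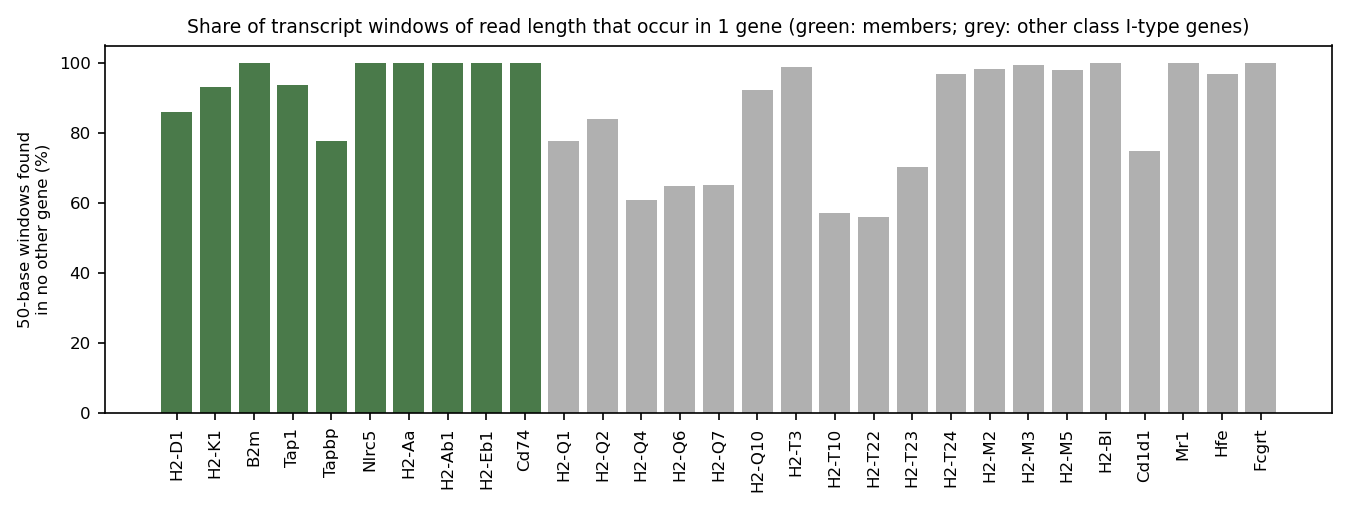
Share (%, vertical axis from 0) of the 50-base windows in each gene's protein-coding transcripts that occur in no transcript of another gene, for the 10 members (green) and the other class I-type genes of the count table (grey). All 4 class II members, B2m and Nlrc5 are at 100%, H2-D1 is at 86.1%, and H2-T22 and H2-T10, at 56.1% and 57.1%, are the lowest.

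The other class I heavy chain and class I-like genes give a view of the family. Of 23 listed, 19 were in the table and 15 were tested, and none passed in edgeR in either direction (3.99% of all genes passed) and 1 had an unadjusted p under 0.05, with 12 positive and 3 negative log2 values and a median of 0.17. H2-T3, which encodes the thymus leukaemia antigen, had the smallest p and stood at 1.04, 1.41 and 2.14 CPM in young and at 5.48, 6.04 and 5.63 CPM in old libraries. It lay just outside the threshold with a log2 value of 1.89 ± 0.48 SE (edgeR adjusted p = 0.0501), and it passed in both DESeq2 and limma-voom. Of its windows, 98.8% occur in no other gene. H2-Q4 stood at 198, 204 and 201 CPM in young and at 229, 233 and 235 CPM in old libraries (log2 value 0.21, edgeR adjusted p = 0.326). When all heavy chain and class I-like genes were summed with H2-D1 and H2-K1, so that reads moved among these genes cancel, the level was 2190.0, 2412 and 2203 CPM in young and 2759.7, 2627 and 2691 CPM in old libraries, without overlap and with a ratio of means of 1.19. H2-D1 and H2-K1, each without overlap, made up most of this sum, with a mean of 1351 of 2268 CPM in young libraries. The other listed genes alone summed to 818 to 974 CPM in young and 938 to 1004 CPM in old libraries, with overlap. Further genes with shared windows, such as Gm11127 (4.04% of the windows of H2-D1), lie outside these sums.

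B2m is the light chain that these heavy chains bind. It stood at 2952, 2673 and 2257 CPM in young and at 2406, 3128 and 2705 CPM in old libraries, and the groups overlapped. Its log2 fold change was 0.06 ± 0.12 SE, with a 95% interval from −0.19 to 0.32 (edgeR adjusted p = 0.851). B2m held 1.94 ± 0.181 times the summed CPM of H2-D1 and H2-K1 in young and 1.6 ± 0.264 times in old libraries (SD, n = 3), and the groups overlapped. The lowest ratio, 1.37, was that of old replicate 1, the library with the highest H2-K1.

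For peptide loading, Tap1 stood at 42.6, 50.0 and 56.2 CPM in young and at 42.4, 35.1 and 38.2 CPM in old libraries. The groups were separated by 1 close pair, young replicate 1 and old replicate 1. The log2 value was −0.36 ± 0.18 SE with a 95% interval from −0.75 to 0.02 (edgeR adjusted p = 0.339). Its partner subunit Tap2 had a log2 value of −0.42, with young libraries at 27.4, 36.7 and 23.4 CPM and old ones at 21.3, 22.2 and 21.7 CPM (edgeR adjusted p = 0.382). Tapbp ranged from 55.2 to 88.4 CPM in old libraries, around the young range of 56.3 to 69.4 CPM, with a log2 value of 0.16 ± 0.18 SE (edgeR adjusted p = 0.746). None of 9 other loading and trimming genes and none of 6 immunoproteasome and activator genes passed in edgeR, DESeq2 or limma-voom, with 1 and 0 genes at an unadjusted p under 0.05 in edgeR and list medians of 0.07 and −0.09. Sec61a1, a channel of the endoplasmic reticulum, had the smallest p of the loading list (log2 value −0.38, edgeR adjusted p = 0.293). Psmb10 had a log2 value of −0.31 (edgeR adjusted p = 0.424), and Psmb9, the head-to-head neighbour of Tap1, had −0.19 (edgeR adjusted p = 0.676).

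Nlrc5, the class I coactivator, stood at 96.8, 102 and 126 CPM in young and at 113, 93.4 and 101 CPM in old libraries. Its groups overlapped, and its log2 value was −0.08 ± 0.14 SE with a 95% interval from −0.39 to 0.23 (edgeR adjusted p = 0.845). Ciita, its class II counterpart, varied more, from 4.41 to 14.5 CPM in young and from 8.35 to 18.5 CPM in old libraries, and did not pass either (edgeR adjusted p = 0.778). None of 13 listed MHC transcription factors passed with any of the 3 tools, and 1 had an unadjusted p under 0.05 in edgeR, with 5 positive and 8 negative log2 values. Irf1, a factor that binds interferon-responsive promoters, had a log2 value of 0.37 (edgeR adjusted p = 0.33).

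Class II chain genes had lower means in old libraries, but none passed with any of the 3 tools. H2-Ab1 stood at 37.5, 44.1 and 50.7 CPM in young and at 36.3, 31.1 and 31.9 CPM in old libraries, and every old library lay below every young one. The log2 value was −0.41 ± 0.18 SE with a 95% interval from −0.82 to −0.01 (edgeR adjusted p = 0.287). H2-Aa stood at 46.3, 84.7 and 46.2 CPM in young and at 47.6, 47.3 and 40.9 CPM in old libraries. Young replicate 2 alone was high, and without it the log2 value of −0.38 ± 0.23 SE became −0.03 (edgeR adjusted p = 0.468 with all libraries and 0.969 without it). H2-Eb1 was the lowest member, at 12.4, 14.9 and 17.2 CPM in young and at 13.3, 6.29 and 10.4 CPM in old libraries. Its log2 value of −0.56 ± 0.32 SE (edgeR adjusted p = 0.438) ran from −0.81 without old replicate 1 to −0.31 without old replicate 2. H2-Aa and H2-Ab1, whose products pair, did not keep one proportion, since their ratio ran from 0.91 to 1.92 in young and from 1.28 to 1.52 in old libraries.

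Cd74, the invariant chain, had a log2 value of the opposite sign to the chains it accompanies. It stood at 42.7, 38.4 and 38.5 CPM in young and at 48.6, 53.9 and 46.7 CPM in old libraries, all old ones above all young ones. Its log2 value was 0.32 ± 0.16 SE with a 95% interval from −0.03 to 0.67, and it did not pass (edgeR adjusted p = 0.365). The ratio of Cd74 to H2-Ab1 within each library, chosen after the values were seen, was 1.14, 0.869 and 0.758 in young and 1.34, 1.73 and 1.46 in old libraries. The ratio of Cd74 to the sum of the 3 chains, also not planned beforehand, was 0.444, 0.267 and 0.337 in young and 0.500, 0.636 and 0.561 in old libraries. Neither ratio depends on how libraries are scaled to each other, and no test was made of them. Both had groups that did not overlap. For Cd74 to H2-Ab1 this follows from the separate groups of the 2 genes and is no further result.

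**Figure D3:**
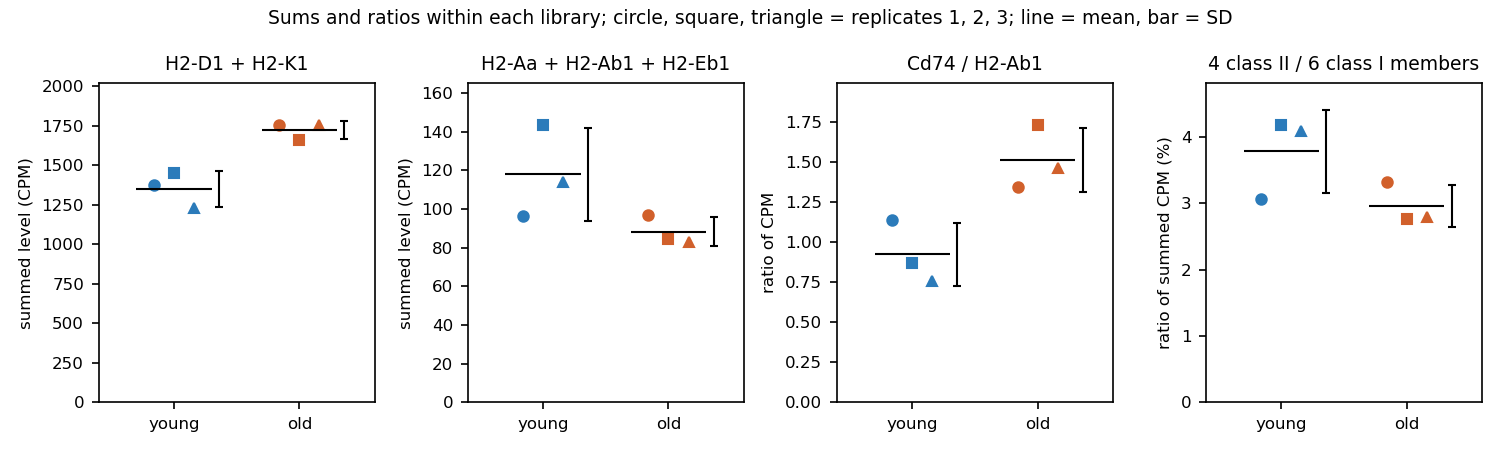
Sums in scaled counts (CPM) and ratios within each of the 3 young and 3 old libraries, with circle, square and triangle for replicates 1, 2 and 3, a line for the mean and a bar for the SD (all axes from 0). H2-D1 plus H2-K1 and the ratio of Cd74 to H2-Ab1 are higher in all old libraries, which follows from the separate groups of the single genes. The summed class II chains and the class II share of class I overlap between the ages.

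Between the classes, the class I members summed to 4529, 4348 and 3725 CPM in young and 4388, 5002 and 4652 CPM in old libraries, a log2 ratio of means of 0.16. The class II members summed to 139, 182 and 153 CPM in young and 146, 139 and 129.9 CPM in old libraries, a log2 ratio of means of −0.19. Class II CPM came to 3.07%, 4.19% and 4.10% of class I CPM in young and 3.32%, 2.77% and 2.79% in old libraries. Young replicate 1 lay among the old libraries, so the groups overlapped, and the mean difference was −0.34 on the log2 scale against standard deviations of 0.25 in young and 0.15 in old libraries. The sums hid what single genes did. B2m made up most of the class I sum, and without it the log2 ratio for class I was 0.30, and without Cd74 that for class II was −0.42. Without both, the log2 difference of class II against class I was −0.70 in place of −0.34.

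Levels of different genes can be compared only per length, here as CPM per kilobase of annotated exon. On this scale B2m led in young libraries at 3055 ± 407, followed by H2-K1 at 306 ± 30.8 and H2-D1 at 176 ± 9.08 (SD, n = 3). With this length, the first class II member in the order was Cd74 at 23.7 ± 1.48 CPM per kilobase. Tapbp (17.6 ± 1.86), H2-Ab1 (17.2 ± 2.58), H2-Aa (15.6 ± 5.84) and Nlrc5 (12.8 ± 1.84) followed, and neighbours among these 4 differed by less than the larger of their standard deviations. Tap1 (9.06 ± 1.24) and H2-Eb1 (7.63 ± 1.22) closed the order, apart by slightly more than the larger of theirs. In old libraries B2m (3193 ± 422), H2-K1 (374 ± 19.4), H2-D1 (241 ± 22.0), Cd74 (29.6 ± 2.20) and Tapbp (19.6 ± 4.58) kept their places, and H2-Ab1, Nlrc5 and H2-Aa lay between 11.9 and 12.9 CPM per kilobase. Summed per length, class II came to 1.81% ± 0.297 of class I in young and 1.56% ± 0.213 in old libraries (SD, n = 3). The class II order and this share depend on the length used. Annotated exon was 3798 bases for H2-Aa, 2568 for H2-Ab1 and 1679 for Cd74. Their protein-coding transcripts held 1127, 1260 and 1462 windows, the reverse order. The young mean CPM was higher for H2-Aa (59.1) and H2-Ab1 (44.1) than for Cd74 (39.9). Per window, Cd74 would therefore not come first in young libraries.

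**Figure D4:**
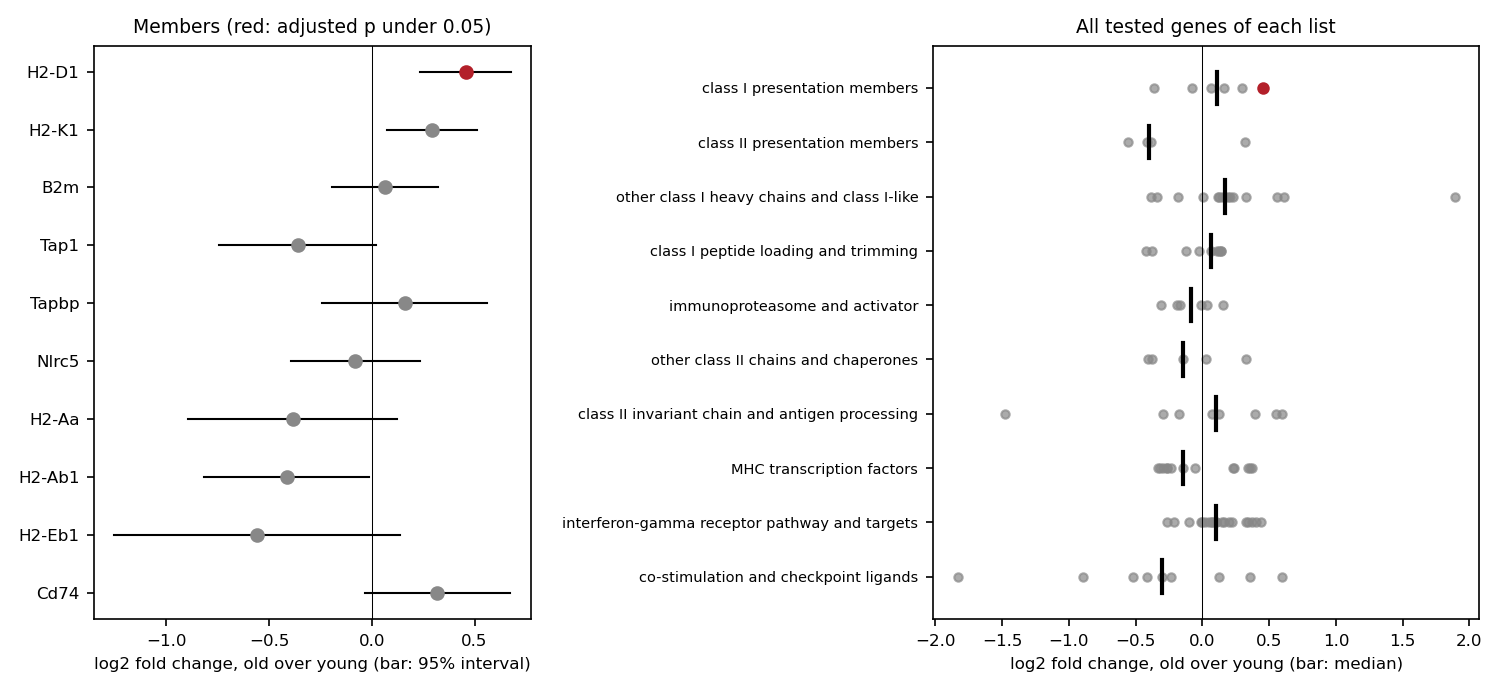
Log2 fold changes of old over young from edgeR, on the left for each of the 10 members with 95% intervals (red marks an adjusted p under 0.05), on the right for all tested genes of the member and pathway lists (cell type markers are not drawn) with a bar at the list's median. H2-D1 is the 1 red point (0.46), Cd74 (0.32) lies apart from the 3 class II chains (−0.38 to −0.56), and H2-T3 (1.89), Ctss (−1.47) and Cd86 (−1.83) lie farthest out among the pathway lists drawn.

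Among 6 other class II genes in the table, 5 were tested, none passed with any of the 3 tools and none had an unadjusted p under 0.05 in edgeR. The tested ones encode H2-DM, which exchanges peptides on class II molecules, and its inhibitor H2-O. H2-DMb1 had a log2 value of 0.32 (edgeR adjusted p = 0.597) and H2-Ob one of −0.38 (edgeR adjusted p = 0.7). Of 8 tested genes of class II antigen processing none passed in edgeR or limma-voom, 4 had an unadjusted p under 0.05 in edgeR (16.5% of all genes), and 3 (Ctss, Ctsl and Ctsb) passed in DESeq2 (8.05% of all genes). Ctss, the cathepsin that cuts the invariant chain in professional antigen-presenting cells, stood at 6.35, 7.76 and 7.52 CPM in young and at 2.32, 2.77 and 2.70 CPM in old libraries (log2 value −1.47 ± 0.39 SE, edgeR adjusted p = 0.0612). Ctsl, a cathepsin with the same role in thymic epithelium, stood at 60.6, 46.8 and 46.9 CPM in young and at 73.6, 71.6 and 80.4 CPM in old libraries (log2 value 0.55 ± 0.16 SE, edgeR adjusted p = 0.0831). The log2 values of these cathepsins had opposite signs.

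Genes that respond to interferon gamma, a strong inducer of both classes, were listed as a further group of the pathway. None of 20 passed with any of the 3 tools and 5 had an unadjusted p under 0.05 in edgeR (16.5% of all genes), where 15 had positive and 5 negative log2 values, and the median was 0.10. Igtp and Gbp2, interferon-induced GTPases, had the smallest p, with log2 values of 0.40 and 0.44 (edgeR adjusted p = 0.157 for both). Of 9 tested co-stimulatory and checkpoint ligands none passed in edgeR or limma-voom, 4 had an unadjusted p under 0.05 in edgeR (16.5% of all genes), and Cd86 passed in DESeq2. Cd86, the B7-2 ligand of antigen-presenting cells, stood at 4.36, 9.53 and 5.11 CPM in young and at 1.56, 2.10 and 1.69 CPM in old libraries (log2 value −1.83 ± 0.48 SE, edgeR adjusted p = 0.0579). Cd274, which encodes PD-L1, stood at 79.3, 90.4 and 90.9 CPM in young and at 112, 109 and 113 CPM in old libraries (log2 value 0.36 ± 0.12 SE, edgeR adjusted p = 0.153).

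Markers of cells that carry class II differed between the same libraries. Of 14 listed macrophage markers 13 were in the table and 11 were tested, of which 7 fell and none rose (1.54% of all genes fell). They summed to 51.7, 67.9 and 68.9 CPM in young and to 23.6, 21.6 and 18.3 CPM in old libraries. Mrc1, the mannose receptor, fell from 14.9 ± 5.00 to 1.597 ± 0.807 CPM (SD, n = 3, edgeR adjusted p = 0.00194), and the adhesion molecule Vcam1 from 9.25 ± 2.28 to 0.846 ± 0.719 CPM (edgeR adjusted p = 0.0077). The complement genes C1qb and C1qc, Adgre1, Cd5l and Fcna were the other 5 that fell. Of these, Adgre1, C1qb, Cd5l and Fcna had counts in young libraries only. They passed the filter through that group and could only be called as lower, so the 7 calls cannot be weighed against the share over all genes. Adgre1, C1qb, Cd5l, Fcna and Vsig4 had no count in any old library, which allows up to 0.127, 0.252 and 0.137 CPM in old replicates 1 to 3 (3 counts, for counting error only). Young replicate 2, the library with the high H2-Aa, had the highest level of all 6 libraries for Mrc1 (19.6 CPM), Siglec1 (4.0 CPM), C1qb (2.78 CPM) and Adgre1 (2.16 CPM), and also for Cd86 (9.53 CPM). These genes are named because they peaked there. Not all macrophage markers did, since the list summed to 68.9 CPM in young replicate 3 and 67.9 CPM in young replicate 2. H2-Aa stood at 46.2 CPM in young replicate 3, whereas H2-Ab1 (50.7 CPM) and H2-Eb1 (17.2 CPM) were highest in that library.

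Of 10 dendritic cell markers 8 were in the table and 6 were tested. Clec9a rose from 15.6 ± 5.19 to 52.0 ± 15.97 CPM and Flt3 fell from 37.5 ± 4.31 to 11.9 ± 1.84 CPM (SD, n = 3, edgeR adjusted p = 0.00565 and 0.00136). Flt3 is also a receptor of early progenitors. The list summed to 51.2 to 75.9 CPM in young and 63.7 to 96.4 CPM in old libraries. Ccr7 had no count in any old library or in young replicates 1 and 2, and 19 counts in young replicate 3. None of 3 tested B cell markers passed with any of the 3 tools or had an unadjusted p under 0.05 in edgeR, and the 6 in the table summed to 19.2 to 24.5 CPM in young and 19.15 to 28.0 CPM in old libraries, mostly from Cd79b. Igkc, an immunoglobulin light chain gene, had no count in any young library and 8, 4 and 132 counts in old replicates 1 to 3, and old replicate 3 had the highest sum. Ebf1 and Cd22 had the smallest p among them (edgeR adjusted p = 0.695 and 0.732). The same held for monocyte markers (4 tested, summed level 14.2 to 18.04 CPM in young and 11.5 to 15.01 CPM in old libraries), with Cd14 and Ms4a6c at the smallest p (edgeR adjusted p = 0.695 and 0.767). None of 4 T and NK cell markers passed in edgeR, 1 had an unadjusted p under 0.05 there, and Cd4 passed in DESeq2, with Cd4 and Nkg7 at the smallest p (edgeR adjusted p = 0.07 and 0.664). Of 5 tested endothelial markers 2 rose and none fell (2.45% of all genes rose), Cldn5 from 0.826 ± 0.215 to 15.6 ± 6.04 CPM and Kdr from 5.53 ± 1.87 to 38.1 ± 12.4 CPM (SD, n = 3, edgeR adjusted p = 0.000314 and 0.000671). Pecam1, Tie1 and Emcn, which had more counts than Cldn5 and Kdr in young libraries, passed with none of the 3 tools. The median log2 value of the 5 endothelial markers was 0.15, and 1 of them was negative. The part of macrophages, endothelial cells and other cells in the class I and class II values was not tested.

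**Figure D5:**
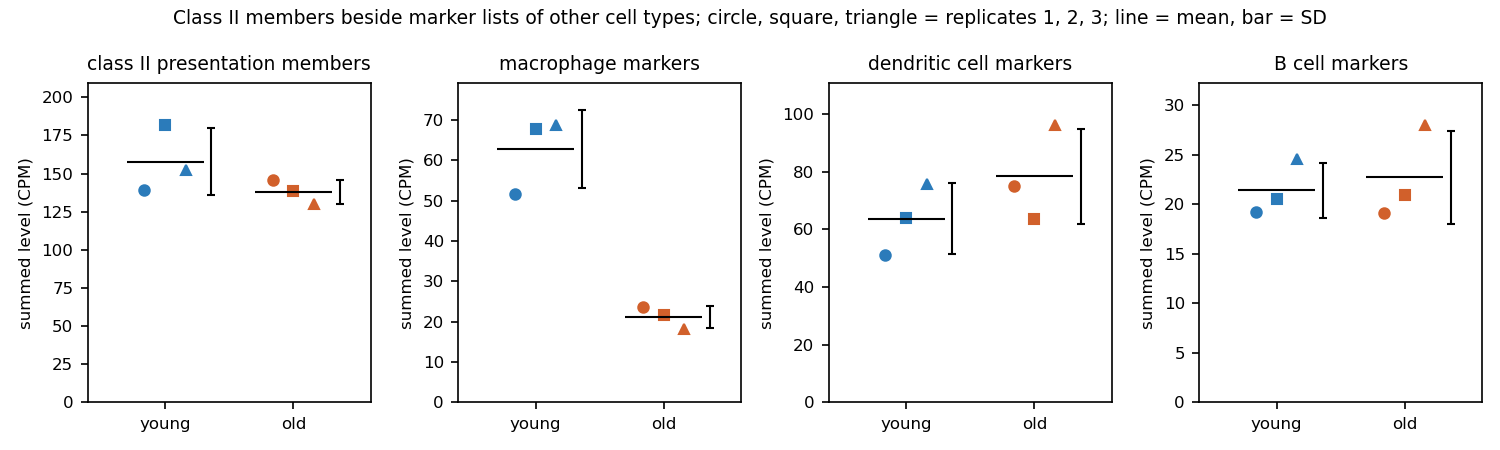
Summed level in scaled counts (CPM, axes from 0) of the 4 class II members and of the markers of 3 other cell types in each library, with circle, square and triangle for replicates 1, 2 and 3, a line for the mean and a bar for the SD. Macrophage markers lie between 51.7 and 68.9 CPM in young and between 18.3 and 23.6 CPM in old libraries, while the other 3 sums overlap between the ages.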

How the data were processed

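Libraries were prepared from the RNA of sorted HSCs by a low-input method and read from one end over 50 bases, as the labels' protocols and the design text state. The submitters' processing notes list Salmon, DESeq2, FastQC, MultiQC and the build GRCm38, with neither versions nor roles. The authors deposited estimated counts, as whole numbers, for 16312 genes in 6 columns, which were matched to samples by title. The authors' deposited table of young against old holds a base mean (a normalised signal), a log2 fold change, a test score, a p-value and its adjusted form.

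The analysis used edgeR 4.0.16 in R 4.3.3. The filter on low counts (at least 10 in enough libraries and 15 in total) left 14288 genes, libraries were scaled by TMM, and old was tested against young by the two-sided quasi-likelihood F test, with Benjamini-Hochberg adjustment over all tested genes at 0.05. Alternatives used DESeq2 1.42.0, limma 3.58.1 (voom), other scalings and filters, and each library left out. The fit was tested on simulated counts. Sums and ratios over members got no test. The design text names the samples biological replicates, and each p-value sets the difference between the ages against the spread between them.

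Members and lists were chosen with earlier results of these data known. Named genes are all members and, from each list, those that passed or else the 2 with the smallest p, except for items that are not reported here. Cd79b, Igkc, Siglec1, Ccr7, Vsig4, Ciita and the genes named for shared or motif-bearing sequence were named after their values were seen. The motifs and the gap were chosen after the promoters were seen. Positions and exon lengths are from GENCODE M21 (GRCm38), promoters from RefSeq (GRCm38.p6).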

Additional observations from a re-analysis of the deposited data

How the results depend on the processing

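No paired analysis was possible because replicate numbers were given in accession order and tie no young sample to an old one. The number of members that passed was 1 with all 6 libraries under every scaling, filter and tool tried, always H2-D1, and 0 without any 1 library, where fewer samples are tested. Over all genes, 570 passed in edgeR and 1105 in DESeq2, and 245 to 473 when 1 library was left out, lowest without old replicate 3. Library size alone as the scaling gave 310 higher and 298 lower genes in place of 350 and 220. With 1 library left out, the log2 values of 3 members that never passed changed sign. B2m ran from −0.036 (without old replicate 2, and also without young replicate 3) to 0.16, Tapbp from −0.019 (without old replicate 2) to 0.32, and Nlrc5 from −0.15 to 0.043 (without young replicate 3). The class sums moved by more than the spread between libraries when B2m or Cd74 was left out, to 0.30 for class I without B2m, −0.42 for class II without Cd74 and −0.70 for their ratio without both, since the genes left out had other changes than the rest. In the other 41 combinations of a count, sum or ratio with a setting, counts stayed within 1.5 times and sums and ratios within that spread. Among the lists, H2-T3, Ctss, Ctsl, Ctsb, Cd86, Cd4, Cd68, Hoxb5, Fgd5 and Ctnnal1 passed in DESeq2 and not in edgeR, and H2-T3 in limma-voom too, while Adgre1 and Cd5l passed in edgeR and got no adjusted p in DESeq2. Depth limits H2-Eb1 most, with 75 counts in its lowest library.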

Other observations

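Among the genes outside all lists at 5 CPM or more (10596 genes), those whose log2 CPM was most like the mean of the 4 class II members were Kdm4a, C77080, Rasal3, Ilkap and Hist4h4. For the 6 class I members they were Ints4, Srd5a1, Slc33a1, Npdc1 and Arrdc4. Pearson's r was 0.991 to 0.996 for the first group and 0.9754 to 0.991 for the second, over 6 libraries in 2 age groups. The genes were picked for the highest r among 10596 genes, so values this high follow at least in part from the selection. Shared regulation was not tested. In the 2 rankings, 12 and 21 genes lay within 0.02 of the r of the fifth gene. None of these 10 genes passed the test of old against young in edgeR, where the lowest adjusted p was 0.0572 (Arrdc4).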
